A study of Rattus norvegicus with 12 samples.

Results

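The genes examined here are 44 rat genes of DNA replication and nucleotide supply, taken by symbol from a table of 18344 rows. All 44 symbols were found, each in 1 row, and all 44 had a value above 0 in all 12 libraries. All 44 also passed the filter on low values (at least 1 FPKM in 3 or more libraries), which 14257 genes passed. The unit is FPKM, fragments scaled to transcript length and library size, so levels can be set side by side between genes. The genes fall into 9 role groups: origin licensing, the MCM helicase, helicase activation, polymerases and primase, the sliding clamp and its loader, flap removal and ligation, single-strand DNA binding, nucleotide supply, and chromatin assembly with histone mRNA and uracil removal.

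The libraries were made from poly-A RNA of cells labelled H9C2, a myoblast line from embryonic rat heart, that had gone through OGD/R, a culture model of ischaemia in which oxygen and glucose are withdrawn and then given back. The 4 groups of 3 biological replicates were CIRBP (OGD/R + CIRBP), si-CIRBP (OGD/R + si-CIRBP), si-NC (OGD/R + si-NC) and NC (OGD/R + NC), so all 12 libraries shared OGD/R. CIRBP was set against NC and si-CIRBP against si-NC. The question is how these genes respond to treatments directed at Cirbp, an RNA-binding protein induced by cold. The control groups were also compared with each other. The labels do not say how CIRBP or the siRNA was delivered or which cells the controls shared, and the cell line label names rat astrocytes.

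Each eukaryotic replication origin is licensed once per cell cycle: the origin recognition complex, Cdc6 and Cdt1 load the ring-shaped MCM helicase on DNA in G1 phase. In S phase Cdc45 and the GINS complex turn this ring into the active helicase, and polymerases, a sliding clamp and its loader copy both strands. Ribonucleotide reductase, thymidylate synthase and thymidine kinase supply the deoxynucleotides. Many of these genes are transcribed at the G1/S boundary under E2F transcription factors, and their mRNAs are common markers of proliferating cells.

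Cirbp mRNA was at 34.3, 36.5 and 36.5 FPKM in CIRBP libraries, against 19.0, 19.8 and 20.1 FPKM in NC libraries, so the groups did not overlap. It was at 26.5, 28.6 and 27.7 FPKM in libraries labelled si-CIRBP, against 29.0, 24.2 and 27.0 FPKM in si-NC libraries, and these overlapped (log2 fold change 0.05, limma adjusted p = 0.609). The mRNA therefore goes against the si-CIRBP label, and that group is named by its label throughout. Summed expression was 457775 to 502889 FPKM per library, and relative depth, from the steps between low values, was 0.842 to 1.03 times that of NC library 1. Absolute depth is unknown. The 10 skeletal and cardiac muscle markers in the table summed to 11.7 to 12.6 FPKM in CIRBP, to 27.5, 114 and 168 FPKM in si-CIRBP, to 12.6, 120 and 51.4 FPKM in si-NC and to 8.24 to 8.97 FPKM in NC. The 4 smooth muscle markers summed to 2.97 to 3.59 FPKM in CIRBP, 688 to 877 FPKM in si-CIRBP, to 109, 1360 and 1040 FPKM in si-NC and to 5.45 to 7.62 FPKM in NC. The smooth muscle markers thus set all si libraries apart from the CIRBP and NC libraries. By the skeletal and cardiac sum, but not gene by gene, si-NC library 1 was at the CIRBP level. Myod1 was at 1.74 FPKM in that library, against 0.0346 to 0.0798 FPKM in CIRBP, and Myog at 0.798 FPKM, against 0 to 0.124 FPKM. Tnni3 was lower there, at 2.88 FPKM against 5.57 to 5.8 FPKM in CIRBP. In both sums si-NC library 1 stood apart from its group. The 6 astrocyte markers in the table summed to 267 to 283 FPKM in CIRBP, 182 to 196 FPKM in si-CIRBP, 132 to 185 FPKM in si-NC and 180 to 194 FPKM in NC. Aldoc was at 83.5 to 91.0 FPKM in CIRBP and 20.8 to 24.0 FPKM in NC, and Gfap at 6.87 to 6.89 FPKM in CIRBP and 4.24 to 4.74 FPKM in NC. S100b, the largest part of each sum, differed less, at 176 to 188 FPKM in CIRBP and 155 to 165 FPKM in NC. Slc1a3 was at no more than 0.0293 FPKM in CIRBP and NC libraries. It was at 2.21 to 4.35 FPKM in si-CIRBP and 0.354 to 4.82 FPKM in si-NC. Aldh1l1 and Slc1a2 stayed under 1 FPKM in every library. The part of these marker differences in the results below was not tested.

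The 44 genes were well expressed. Their mean levels over the 12 libraries had a median of 21.5 FPKM, against 11.6 FPKM over all tested genes, and 39 of 44 exceeded 10 FPKM, as 53.8% of tested genes did. Pcna, the sliding clamp, was the most abundant at 190 FPKM (139 to 247 FPKM over the 12 libraries), followed by Rrm2, the small subunit of ribonucleotide reductase, at 167 FPKM and the thymidine kinase Tk1 at 82.5 FPKM. Cdc45 was the least abundant at 4.35 FPKM. In NC libraries the 6 subunits of the MCM ring lay between 31.7 FPKM (Mcm3) and 53.9 FPKM (Mcm4), a ratio of 1.70. The 9 polymerase and primase genes, which belong to several enzymes, ranged from 6.41 FPKM (Pole2) to 69.0 FPKM (Prim1), a ratio of 10.8. Together the 44 genes made up 0.346% to 0.373% of summed FPKM in CIRBP libraries and 0.272% to 0.281% in NC libraries. The share was 0.302%, 0.413% and 0.393% in the libraries labelled si-CIRBP, against 0.362%, 0.288% and 0.334% in si-NC libraries. CIRBP libraries thus lay above NC libraries without overlap, while the si groups overlapped.

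Promoters of 38 of the 44 genes were found among RefSeq promoter windows of the rat build GRCr8 (250 bases before to 50 after the gene's start); Orc1, Cdc6, Mcm4, Gins4, Rpa3 and Rrm2 were not matched. They were searched on both strands for the letters TTTGGCGC or TTTCGCGC, which are forms of the E2F site. The motif was present in 13 of the 38 windows (34.2%), against 231 of all 27457 windows (0.841%). The letters CCAAT, on either strand, were in 23 of 38 (60.5%), against 37.7% of all windows. TTTGAA, the cell cycle homology element, was in 5 of 38 (13.2%), against 18.1% of all windows. E2F matches lay in the windows of 5 MCM genes (Mcm2, Mcm3, Mcm5, Mcm6 and Mcm7) and in those of Pole2, Pole, Pola1, Gins1, Cdt1, Rfc3, Lig1 and Tyms. Windows with a match were found for 11 of the 27 matched genes called higher in CIRBP than in NC and for 2 of the other 11. These matches are descriptions of letters and not of bound sites.

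The 4 windows below show Pole2 and Gins1, which carried the motif and were among the largest differences, Mcm7, which carried it and did not differ between CIRBP and NC beyond the spread, and Tk1, which had no match and the second largest difference. They run 5′ to 3′ on the strand of the gene, with E2F matches in capitals. Pole2 lies at chr6:93435312-93435611 (minus strand), Gins1 at chr3:160184670-160184969 (plus strand), Mcm7 at chr12:22163129-22163428 (minus strand) and Tk1 at chr10:103544728-103545027 (minus strand), all in GRCr8. In Gins1 a forward and a reverse match overlap.
Pole2: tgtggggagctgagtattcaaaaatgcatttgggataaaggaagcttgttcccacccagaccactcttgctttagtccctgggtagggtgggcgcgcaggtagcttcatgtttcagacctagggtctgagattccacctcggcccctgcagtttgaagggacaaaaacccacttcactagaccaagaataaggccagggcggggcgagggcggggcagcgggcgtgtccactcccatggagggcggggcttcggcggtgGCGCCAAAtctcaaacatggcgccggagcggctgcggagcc
Gins1: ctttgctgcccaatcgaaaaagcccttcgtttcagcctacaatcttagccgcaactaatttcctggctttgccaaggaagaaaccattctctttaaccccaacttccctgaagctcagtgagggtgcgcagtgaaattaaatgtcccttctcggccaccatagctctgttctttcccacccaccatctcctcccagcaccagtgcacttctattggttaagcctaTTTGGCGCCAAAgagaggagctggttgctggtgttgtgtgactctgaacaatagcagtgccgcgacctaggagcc
Mcm7: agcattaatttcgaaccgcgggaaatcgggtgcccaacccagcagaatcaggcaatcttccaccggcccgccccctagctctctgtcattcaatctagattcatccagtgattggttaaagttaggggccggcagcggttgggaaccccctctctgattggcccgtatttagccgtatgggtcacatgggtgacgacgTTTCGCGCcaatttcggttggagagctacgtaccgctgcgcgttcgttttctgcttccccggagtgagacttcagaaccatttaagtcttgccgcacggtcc
Tk1: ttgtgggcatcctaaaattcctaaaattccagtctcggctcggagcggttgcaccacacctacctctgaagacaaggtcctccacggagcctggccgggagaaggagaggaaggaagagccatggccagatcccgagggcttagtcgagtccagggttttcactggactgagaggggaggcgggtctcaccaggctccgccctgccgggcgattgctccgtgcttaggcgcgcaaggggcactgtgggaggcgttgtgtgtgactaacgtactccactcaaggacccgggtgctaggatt

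Under OGD/R, CIRBP libraries held more mRNA of most replication genes than NC libraries. Of the 44 genes, 29 were called higher (65.9%), 0 lower (0 also at an unadjusted p under 0.05) and 15 were not called, where called means a limma adjusted p under 0.05 over all tested genes. Over all tested genes, 19.7% were called higher and 34.2% lower. In bulk libraries a change in the share of cells that express a gene and a change in its mRNA per cell cannot be told apart. The log2 fold changes, computed on log2(FPKM + 1), had a median of 0.32 and ran from -0.10 to 1.25, against a median of -0.08 over all tested genes. All 3 CIRBP values exceeded all 3 NC values for 36 genes, as for 29.7% of tested genes, and the reverse held for 0. After scaling the libraries to one median, 37 genes were called higher, against 27.3% of tested genes. That scaling moved the split of all calls to 3887 higher and 3913 lower, against 2814 and 4881 as deposited. All 9 calls lost under any alternative (Mcm2, Mcm3, Mcm5, Mcm6, Gins3, Prim1, Pold2, Rfc2 and Fen1) were lost without CIRBP library 3 and also without NC library 1, which left 20 in each case. Of all tested genes 16.8% and 16.4% were then called higher. Most of the 9 were also lost without other single CIRBP or NC libraries. With the libraries of the comparison alone all 29 calls were kept and 31 genes were called higher, against 27.9% of tested genes. CIRBP library 3 was above both other CIRBP libraries in 37 of 44 genes, as in 39.6% of tested genes.

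**Figure D1:**
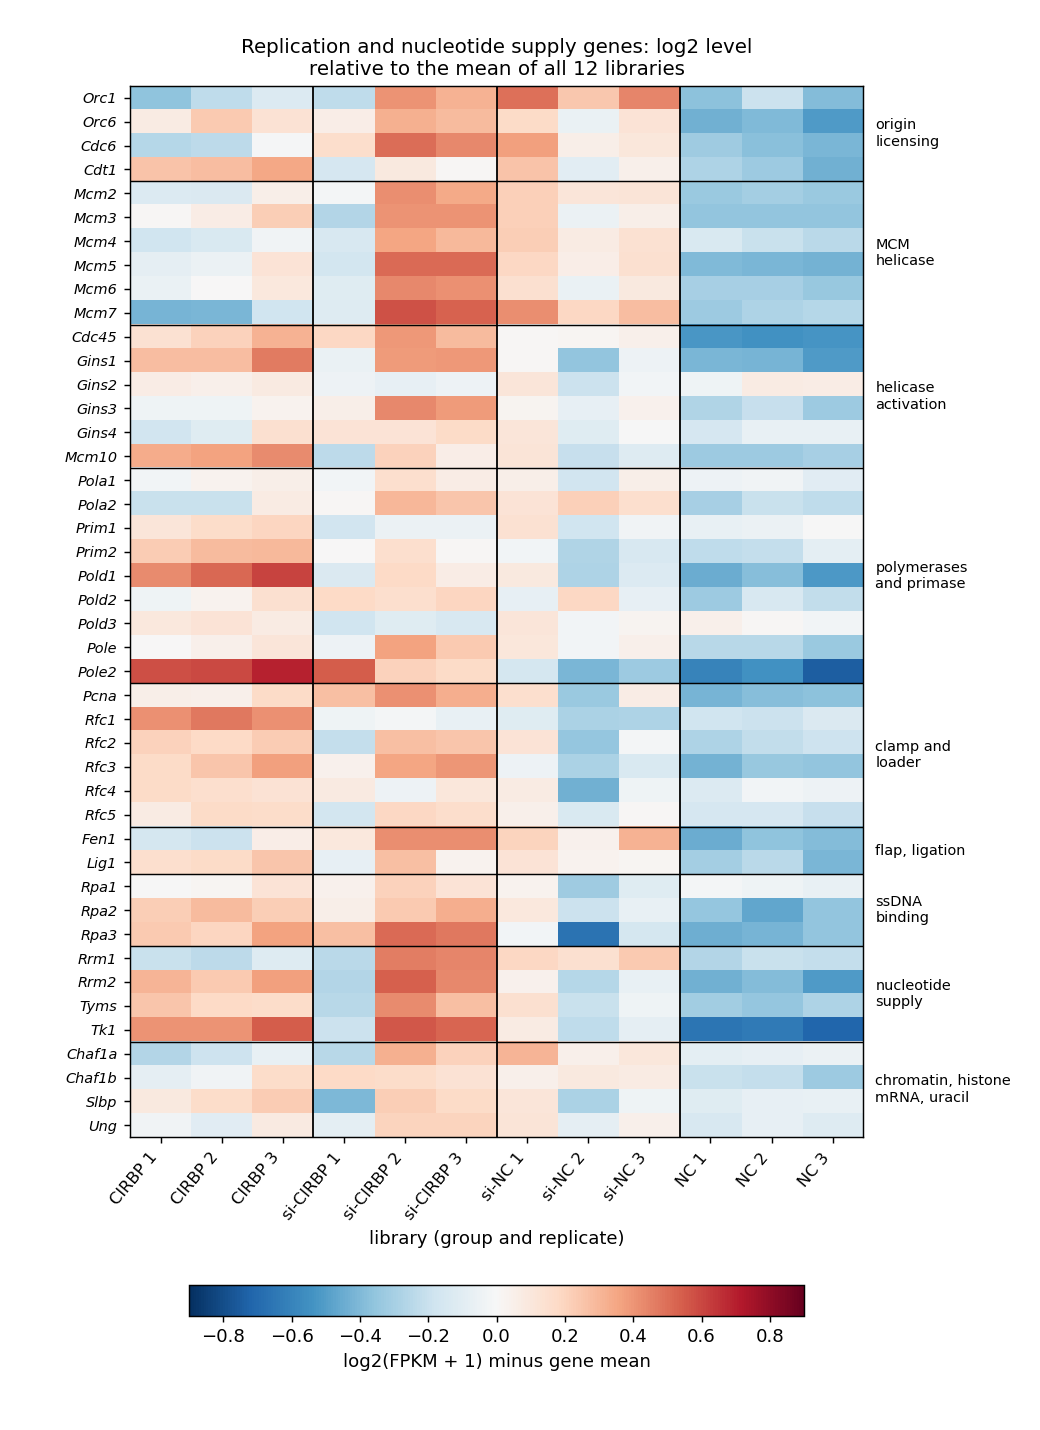
Level of each of the 44 genes (rows, in blocks by role) in each of the 12 libraries (columns), as log2(FPKM + 1) minus the gene's mean over all libraries. NC libraries are low for most genes, CIRBP libraries lie above them for 36 of 44 genes, and si-CIRBP library 1 is below the other si-CIRBP libraries for 37 of 44.

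Of the 4 licensing factors, Cdt1 and Orc6 rose and Orc1 and Cdc6 were not called. Cdt1, which brings the MCM ring to origins, was at 25.7, 26.1 and 27.5 FPKM in CIRBP libraries, against 17.4, 16.8 and 15.6 FPKM in NC libraries. Its log2 fold change was 0.64 (SE 0.0924, limma adjusted p = 0.000177), and the groups were far apart relative to their spread. Orc6, the smallest subunit of the origin recognition complex, was at 13.0, 14.7 and 13.6 FPKM in CIRBP libraries, against 8.88, 9.10 and 8.36 FPKM in NC libraries (log2 fold change 0.60, SE 0.0849, limma adjusted p = 0.000162). Orc1, the largest subunit of the same complex, averaged 6.67 ± 0.642 FPKM in CIRBP and 6.25 ± 0.541 FPKM in NC (SD, n = 3 each), with overlapping libraries. Cdc6, the ATPase that joins the complex, averaged 8.66 ± 0.932 FPKM in CIRBP and 7.38 ± 0.267 FPKM in NC, a log2 fold change of 0.20 that did not pass the test (limma adjusted p = 0.153).

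Of the 6 MCM helicase subunits, which form 1 ring, Mcm2, Mcm3, Mcm5 and Mcm6 were called higher in CIRBP and Mcm4 and Mcm7 were not; differences between subunits were not tested. The 4 calls had log2 fold changes of 0.26 to 0.46. Those of Mcm2, Mcm5 and Mcm6 were lost when any single CIRBP or NC library was left out. That of Mcm3 was lost without CIRBP library 2 or 3 or any NC library. With the libraries of the comparison alone all 4 were kept. Mcm3 was at 41.2, 42.9 and 47.9 FPKM in CIRBP libraries, against 31.8, 31.7 and 31.7 FPKM in NC libraries (log2 fold change 0.46, SE 0.154, limma adjusted p = 0.0272). Mcm5 was at 47.8, 48.8 and 55.3 FPKM in CIRBP libraries, against 38.3, 37.9 and 37.4 FPKM in NC libraries (log2 fold change 0.41, SE 0.150, limma adjusted p = 0.0397). For both, every CIRBP library lay above every NC library, and CIRBP library 3 was the highest. Mcm4 averaged 56.9 ± 3.07 FPKM in CIRBP and 53.9 ± 2.15 FPKM in NC, and Mcm7 38.2 ± 3.80 FPKM in CIRBP and 39.4 ± 0.955 FPKM in NC. Both overlapped, with limma adjusted p = 0.603 for Mcm4 and 0.826 for Mcm7, whose value of -0.05 turned to 0.08 after scaling to one median.

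Among the factors that activate the helicase, Cdc45, Gins1, Gins3 and Mcm10 rose, and Gins2 and Gins4 did not pass the test. Cdc45, a subunit of the active helicase, was at 4.74, 5.04 and 5.50 FPKM in CIRBP libraries, against 2.64, 2.58 and 2.62 FPKM in NC libraries, 1.95-fold by the means (log2 fold change 0.75, SE 0.0759, limma adjusted p = 1.41e-05). Gins1 was at 20.4, 20.4 and 23.4 FPKM in CIRBP libraries, against 12.3, 12.2 and 11.4 FPKM in NC libraries (log2 fold change 0.79, SE 0.130, limma adjusted p = 0.000445). Neither gene overlapped between the groups. The 4 GINS subunits assemble into 1 complex, and their log2 fold changes were 0.79 for Gins1, 0.25 for Gins3, 0.04 for Gins4 and 0.03 for Gins2. Gins2 averaged 8.85 ± 0.125 FPKM in CIRBP and 8.65 ± 0.427 FPKM in NC. Mcm10, a scaffold needed for helicase activation, averaged 12.9 ± 0.452 FPKM in CIRBP and 7.60 ± 0.0859 FPKM in NC (log2 fold change 0.69, limma adjusted p = 0.000334).

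Among the polymerases, Pole2 had the largest and Pold1 the third largest log2 fold change of the 44 genes. Pole2, the second subunit of the leading-strand polymerase epsilon, was at 16.1, 16.3 and 17.5 FPKM in CIRBP libraries, against 6.54, 6.84 and 5.84 FPKM in NC libraries. This was 2.60-fold by the means (log2 fold change 1.25, SE 0.104, limma adjusted p = 3.8e-06). Pold1, the catalytic subunit of polymerase delta, was at 17.1, 18.3 and 19.6 FPKM in CIRBP libraries, against 8.88, 9.32 and 8.42 FPKM in NC libraries, 2.07-fold by the means (log2 fold change 0.97, SE 0.103, limma adjusted p = 2.03e-05). Every CIRBP library was far above every NC library for both genes. Other subunits of the same enzymes had smaller values: Pole, the catalytic subunit of epsilon, had a log2 fold change of 0.33, Pold2 one of 0.28 and Pold3 one of 0.09, the last not called. Of the polymerase alpha and primase complex, which starts each new strand, the primase genes Prim1 (0.19) and Prim2 (0.45) were called and Pola1 (0.08) and Pola2 (0.14) were not.

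Around the clamp, Pcna and the loader subunits Rfc1, Rfc2, Rfc3 and Rfc5 rose and Rfc4 was not called. Pcna was at 193, 192 and 210 FPKM in CIRBP libraries, against 139, 142 and 144 FPKM in NC libraries (log2 fold change 0.48, SE 0.105, limma adjusted p = 0.00274). Rfc1, the large subunit of the loader, was at 28.1, 29.5 and 28.2 FPKM in CIRBP libraries, against 18.4, 18.2 and 19.0 FPKM in NC libraries (log2 fold change 0.60, SE 0.0553, limma adjusted p = 7.6e-06). Rfc3 was at 64.5, 68.2 and 74.2 FPKM in CIRBP libraries, against 42.4, 44.9 and 44.6 FPKM in NC libraries (log2 fold change 0.64, SE 0.0962, limma adjusted p = 0.000245). None of the 6 clamp and loader genes overlapped between the groups, Rfc4 included, at 45.2 ± 0.658 FPKM in CIRBP and 38.7 ± 1.42 FPKM in NC (limma adjusted p = 0.113). Lig1, the ligase that joins Okazaki fragments, was at 11.7, 11.9 and 12.6 FPKM in CIRBP libraries, against 8.27, 8.67 and 7.64 FPKM in NC libraries (log2 fold change 0.51, limma adjusted p = 0.000521). Fen1, the nuclease that trims their flaps, was at 11.5, 11.2 and 13.5 FPKM in CIRBP libraries, against 9.22, 9.84 and 9.64 FPKM in NC libraries (log2 fold change 0.30, limma adjusted p = 0.0307, lost without CIRBP library 3 or any NC library). Of the 3 subunits of RPA, which coats single-stranded DNA, the smaller Rpa2 and Rpa3 rose, with log2 fold changes of 0.63 and 0.67. Rpa3 was at 71.4, 69.5 and 78.2 FPKM in CIRBP libraries, against 44.4, 45.1 and 47.2 FPKM in NC libraries. The large subunit Rpa1 averaged 28.3 ± 1.40 FPKM in CIRBP and 26.5 ± 0.552 FPKM in NC and was not called (limma adjusted p = 0.409).

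Of the 4 nucleotide supply genes, Tk1, Rrm2 and Tyms rose and Rrm1 was not called. Tk1, which salvages thymidine, was at 104, 104 and 115 FPKM in CIRBP libraries, against 49.3, 50.1 and 47.3 FPKM in NC libraries (log2 fold change 1.12, SE 0.167, limma adjusted p = 0.000224). Rrm2 was at 201, 192 and 210 FPKM in CIRBP libraries, against 120, 124 and 114 FPKM in NC libraries (log2 fold change 0.75, SE 0.170, limma adjusted p = 0.00335). Both genes were higher in every CIRBP library. Rrm1, the large subunit of ribonucleotide reductase and partner of Rrm2, averaged 60.0 ± 2.60 FPKM in CIRBP and 58.2 ± 1.28 FPKM in NC, with overlapping libraries (log2 fold change 0.04, limma adjusted p = 0.842). Tyms, which makes thymidylate, averaged 45.1 ± 1.43 FPKM in CIRBP and 31.3 ± 0.783 FPKM in NC (log2 fold change 0.51, limma adjusted p = 0.0118). In the last role group, of the chromatin assembly factor subunits Chaf1b rose (log2 fold change 0.27, limma adjusted p = 0.00726), at 11.3, 11.7 and 13.6 FPKM in CIRBP libraries, against 10.3, 10.2 and 9.38 FPKM in NC libraries. Chaf1a was not called, at 25.2 ± 1.84 FPKM in CIRBP and 27.1 ± 0.400 FPKM in NC, and its value of -0.10 turned to 0.02 after scaling to one median. Slbp, which binds histone mRNA (log2 fold change 0.24), and Ung, which removes uracil from DNA (0.09), were not called.

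**Figure D2:**
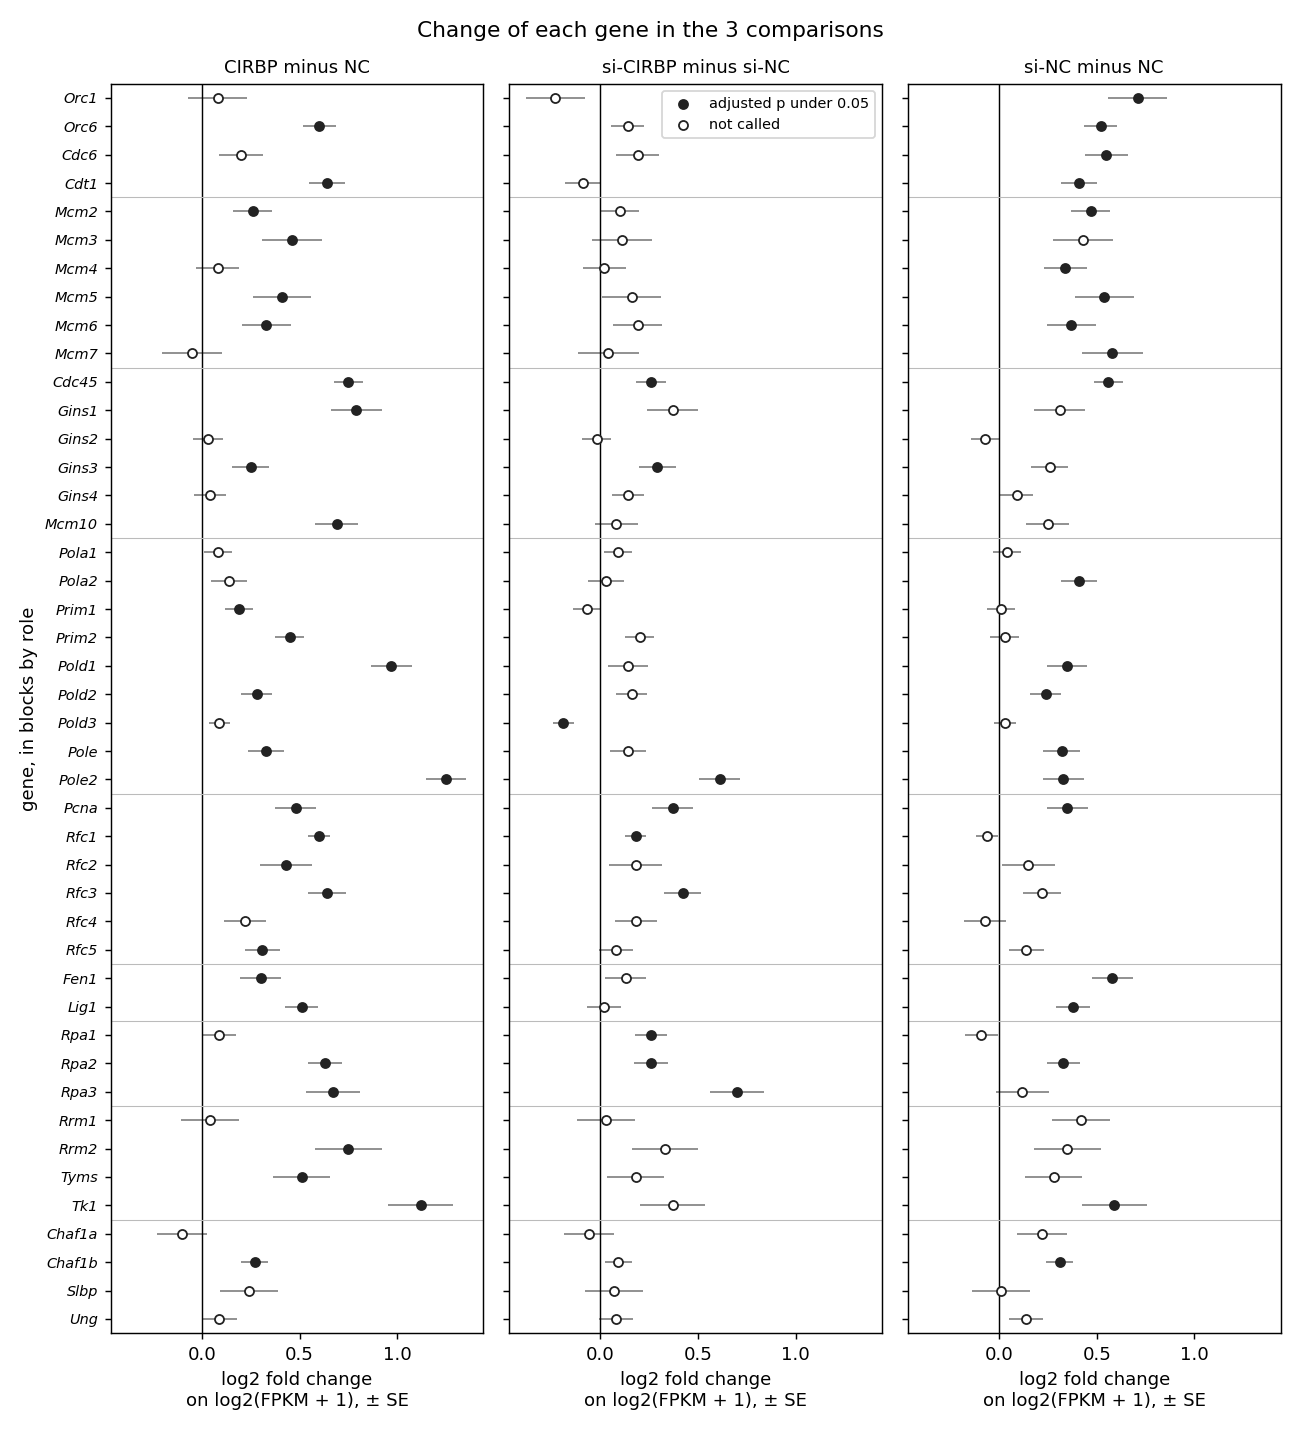
Log2 fold change on log2(FPKM + 1) with its SE (x axis) for each gene (rows, in blocks by role) in each of the 3 comparisons; filled points have a limma adjusted p under 0.05. In CIRBP minus NC 29 points are filled, in si-CIRBP minus si-NC 10 (9 higher and Pold3 lower), and in si-NC minus NC 21.

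Between the libraries labelled si-CIRBP and si-NC libraries, 10 of the genes passed the test, and libraries of both si groups differed among themselves. Of 44 genes, 9 were called higher and 1 lower, against 9.08% and 20.5% of all tested genes, with a median log2 fold change of 0.14 (-0.04 over all tested genes). All 3 si-CIRBP values exceeded all 3 si-NC values for 11 genes, as for 11.7% of tested genes. Library 1 labelled si-CIRBP was below both other si-CIRBP libraries in 37 of 44 genes, as in 45.6% of tested genes, with a median difference of -0.30 on the log2 scale (-0.02 over all tested genes). Library 2 of si-NC was below both other si-NC libraries in 39 of 44 genes, as in 53.1% of tested genes, and si-NC library 1 was above both others in 36 of 44, as in 53.2%. Without si-CIRBP library 1, 26 of 44 were called higher, against 12.1% of tested genes. The count was 3 without si-CIRBP library 2 (8.08% of tested genes), 5 without si-CIRBP library 3 (7.63%) and 4 without si-NC library 3 (6.78%), which for library 2 is no larger a share than over all tested genes. The fit shared 1 spread per gene over the 4 groups, so each comparison drew on the spread of the other arm's libraries. The median SD of the 44 genes on the log2 scale was 0.075 in CIRBP, 0.045 in NC, 0.18 in si-CIRBP and 0.13 in si-NC. Over all tested genes it was 0.057, 0.0539, 0.147 and 0.133. With a variance factor per group 2 were called, against 3.77% of tested genes, and after scaling to one median 18, against 16.2%. That scaling moved the split of all calls to 2307 higher and 2010 lower, against 1294 and 2924 as deposited.

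The genes called higher spanned several roles. Pole2 was at 15.7, 12.2 and 11.9 FPKM in libraries labelled si-CIRBP, against 9.24, 7.63 and 8.15 FPKM in si-NC libraries (log2 fold change 0.61, SE 0.104, limma adjusted p = 0.00181), and was the only one of the 10 called under every alternative. Rpa3 was at 73.3, 86.8 and 84.6 FPKM in libraries labelled si-CIRBP, against 59.4, 37.9 and 54.1 FPKM in si-NC libraries (log2 fold change 0.70, SE 0.137, limma adjusted p = 0.00354). Rfc3 was at 58.9, 73.3 and 75.5 FPKM in libraries labelled si-CIRBP, against 55.5, 46.8 and 51.9 FPKM in si-NC libraries (log2 fold change 0.42, limma adjusted p = 0.00855). The groups did not overlap for any of these 3 genes, and si-CIRBP library 1 was the highest si-CIRBP library for Pole2 and the lowest for Rpa3 and Rfc3. Pcna was at 225, 247 and 233 FPKM in libraries labelled si-CIRBP, against 207, 147 and 195 FPKM in si-NC libraries (log2 fold change 0.37, limma adjusted p = 0.0212), a call lost without si-CIRBP library 2. Cdc45 was at 4.93, 5.86 and 5.37 FPKM in libraries labelled si-CIRBP, against 4.25, 4.30 and 4.39 FPKM in si-NC libraries (log2 fold change 0.26, limma adjusted p = 0.0239). Its call was lost without si-CIRBP library 2, si-CIRBP library 3 or si-NC library 3.

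The remaining calls were nearer the threshold. Gins3 was at 7.91, 10.6 and 10.2 FPKM in libraries labelled si-CIRBP, against 7.75, 7.17 and 7.85 FPKM in si-NC libraries (log2 fold change 0.29, limma adjusted p = 0.0396). Rpa2 was at 18.0, 20.5 and 21.9 FPKM in libraries labelled si-CIRBP, against 18.5, 15.0 and 16.5 FPKM in si-NC libraries (log2 fold change 0.26, limma adjusted p = 0.0411), and its groups overlapped. Rpa1 and Rfc1 had log2 fold changes of 0.26 and 0.18 (limma adjusted p = 0.0404 and 0.0291). The calls of Gins3, Rpa1 and Rpa2 were each lost when any single CIRBP or NC library was left out, and without si-CIRBP library 2 or 3 or si-NC library 2 or 3. That of Rfc1 was lost without si-CIRBP library 2 or si-NC library 2 or 3. Pold3, an accessory subunit of polymerase delta, fell: it was at 8.98, 9.51 and 9.21 FPKM in libraries labelled si-CIRBP, against 11.2, 10.1 and 10.5 FPKM in si-NC libraries (log2 fold change -0.19, limma adjusted p = 0.0277). Its groups did not overlap, and the call was lost under both scalings and without si-CIRBP library 3, si-NC library 1 or si-NC library 3.

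None of the 6 MCM genes or the 4 nucleotide supply genes was called by limma between the si groups (0 and 1 at an unadjusted p under 0.05), and in all 10 library 1 labelled si-CIRBP was the lowest of its group. Tk1 was at 68.4, 116 and 113 FPKM in libraries labelled si-CIRBP, against 82.5, 66.6 and 73.9 FPKM in si-NC libraries (log2 fold change 0.37, limma adjusted p = 0.120). Mcm7 was at 44.6, 72.2 and 70.4 FPKM in libraries labelled si-CIRBP, against 64.8, 55.0 and 58.7 FPKM in si-NC libraries. Rrm1 was at 57.5, 94.3 and 92.8 FPKM in libraries labelled si-CIRBP, against 77.7, 75.4 and 80.6 FPKM in si-NC libraries. In all 3 genes si-CIRBP library 1 was near or below the lowest si-NC library and the other si-CIRBP libraries were above the highest. Without si-CIRBP library 1 the log2 fold changes were 0.62 for Tk1, 0.58 for Rrm2 and 0.26 for Rrm1. They were 0.38 for Mcm5, 0.37 for Mcm6 and 0.26 for Mcm7, and all 6 genes passed the test. Because the library left out was the lowest of its group in these genes, the values had to rise. The calls in that fit are therefore no separate support for a difference. Cdt1 (-0.02) and Gins2 (-0.02) were near 0 in that fit. So was Orc1 (-0.03), which stood at -0.23 with all libraries. The CDK inhibitor Cdkn1a, which restrains entry into S phase, was at 247, 95.0 and 100 FPKM in libraries labelled si-CIRBP, against 99.9, 108 and 102 FPKM in si-NC libraries, so library 1 alone was high. Cdkn2c, another CDK inhibitor, was at 11.9, 30.8 and 33.6 FPKM in libraries labelled si-CIRBP, against 22.7, 18.2 and 22.3 FPKM in si-NC libraries. Some muscle markers also differed in si-CIRBP library 1, but not all in the same direction. Myog, a myogenic transcription factor, was at 1.48, 28.7 and 44.8 FPKM in libraries labelled si-CIRBP, against 0.798, 20.0 and 6.03 FPKM in si-NC libraries. Tnnt2, a troponin, was at 9.45, 61.4 and 89.9 FPKM in libraries labelled si-CIRBP, against 5.05, 68.1 and 22.7 FPKM in si-NC libraries, so library 1 of each si group was the lowest for both. Actc1, Acta1, Tnni3, Myh3, Myh6, Ckm and Acta2 were also lowest in library 1 among the libraries labelled si-CIRBP. Myod1, Des, Tagln, Myh11 and Cnn1 were not. Des was highest there, at 2.36, 1.7 and 1.76 FPKM in libraries labelled si-CIRBP. Whether the inhibitors or the muscle markers bear on the level of the replication genes was not tested.

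**Figure D3:**
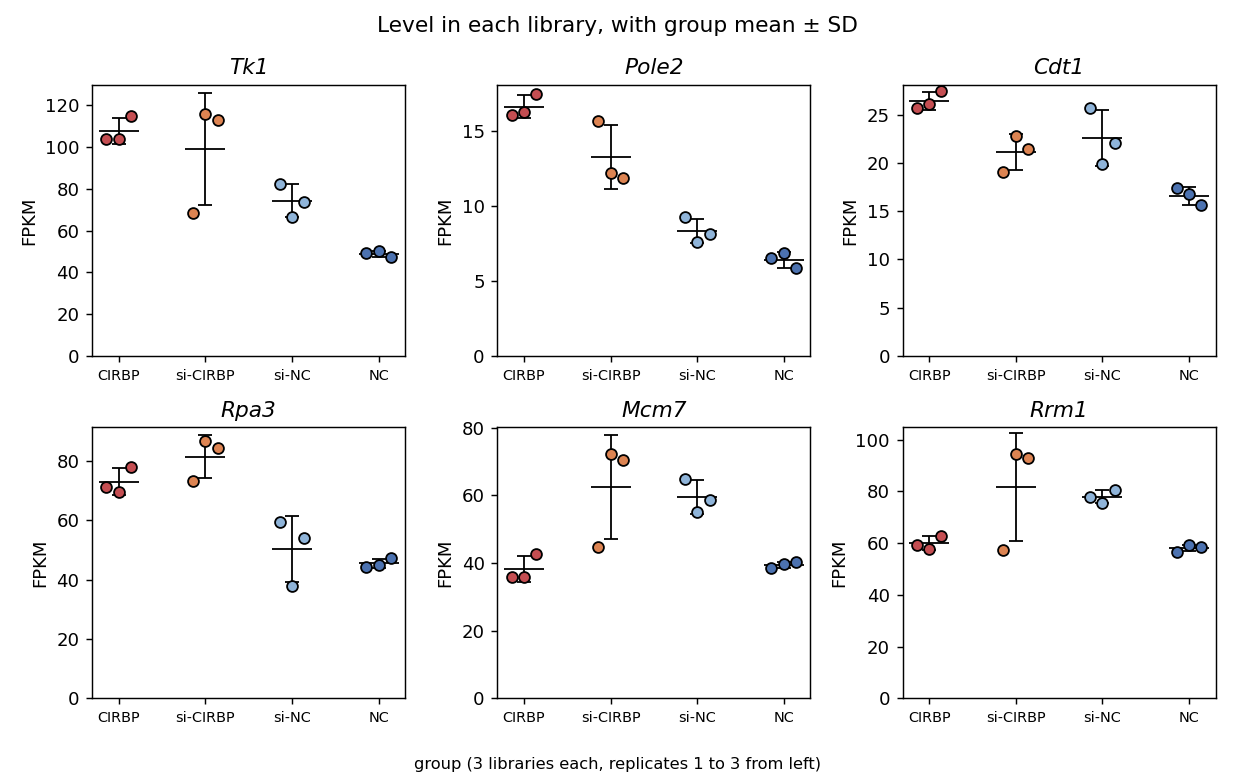
FPKM of Tk1, Pole2, Cdt1, Rpa3, Mcm7 and Rrm1 in each library (points, replicates 1 to 3 from left) of the 4 groups, with group mean and SD. Tk1, Pole2 and Cdt1 are higher in all CIRBP than in all NC libraries, Mcm7 and Rrm1 overlap between CIRBP and NC, and si-CIRBP library 1 stands low for Tk1, Mcm7 and Rrm1.

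The control groups differed as well. In si-NC libraries 21 of 44 genes were called higher than in NC libraries and 0 lower (0 also at an unadjusted p under 0.05), against 12.5% and 21.9% of all tested genes, with a median log2 fold change of 0.32 (-0.07 over all tested genes). All 3 si-NC values exceeded all 3 NC values for 31 genes, as for 19.1% of tested genes. This comparison shares its controls with both others, so its values are given only side by side with theirs. After scaling to one median the split of all calls was 2257 higher and 2401 lower, against 1783 and 3126 as deposited. The count of 21 became 11, 13 or 12 without NC library 1, 2 or 3 and 13 without si-NC library 3. The shares of tested genes called higher were then 7.88%, 7.4%, 7.87% and 6.85%. Which part of the difference comes from the siRNA control and which from other differences between the arms cannot be told apart.

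All 4 licensing factors and 5 of 6 MCM genes were called higher in si-NC than in NC. Orc1 was at 11.7, 9.68 and 11.2 FPKM in si-NC libraries, against 5.99, 6.87 and 5.88 FPKM in NC libraries (log2 fold change 0.71, SE 0.150, limma adjusted p = 0.00595). Cdc6 was at 13.0, 10.2 and 10.6 FPKM in si-NC libraries, against 7.66, 7.34 and 7.13 FPKM in NC libraries (log2 fold change 0.55, limma adjusted p = 0.00503). Mcm7 was at 64.8, 55.0 and 58.7 FPKM in si-NC libraries, against 38.4, 39.7 and 40.3 FPKM in NC libraries (log2 fold change 0.58, limma adjusted p = 0.0168, lost without NC library 1). These 3 genes did not overlap between the control groups, and none of them was called between CIRBP and NC. Mcm4 and Pola2 were the other genes with that pattern, so 5 of the 21 were not called between CIRBP and NC. Fen1 was at 15.0, 13.3 and 16.3 FPKM in si-NC libraries, against 9.22, 9.84 and 9.64 FPKM in NC libraries (log2 fold change 0.58, limma adjusted p = 0.00269). Cdc45 was at 4.25, 4.30 and 4.39 FPKM in si-NC libraries, against 2.64, 2.58 and 2.62 FPKM in NC libraries (log2 fold change 0.56, limma adjusted p = 0.000681). Pcna was called (log2 fold change 0.35) and the 5 loader genes were not, with Rfc1 at 17.8 ± 1.31 FPKM in si-NC libraries and 18.5 ± 0.419 FPKM in NC.

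**Figure D4:**
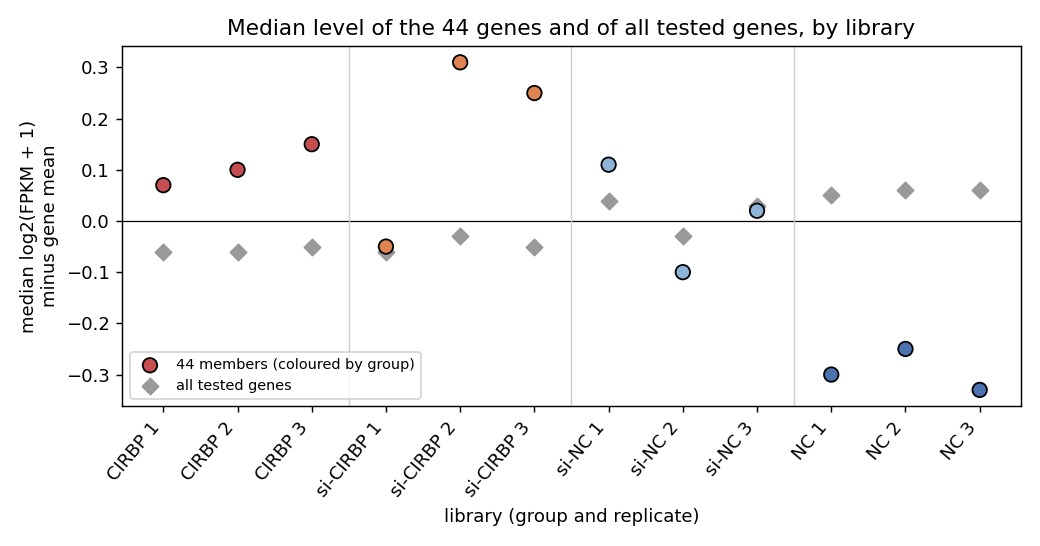
Median over the 44 genes (circles, coloured by group) and over all tested genes (grey diamonds) of log2(FPKM + 1) minus each gene's mean over the 12 libraries, by library. The 44 genes lie at 0.07 to 0.15 in CIRBP and at -0.33 to -0.25 in NC; they lie at -0.05, 0.31 and 0.25 in si-CIRBP and at 0.11, -0.10 and 0.02 in si-NC.

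The difference between the arms, CIRBP minus NC less si-CIRBP minus si-NC, was called higher for 9 of 44 genes and lower for 0 (0 also at an unadjusted p under 0.05), against 6.87% and 10.9% of all tested genes. The 9 were Pold1 (0.83), Cdt1 (0.73), Pole2 (0.65), Mcm10 (0.61), Lig1 (0.49), Cdc45 (0.49), Orc6 (0.45), Rfc1 (0.42) and Pold3 (0.27). For Cdt1 the arms stood at 0.64 in CIRBP minus NC and -0.09 in si-CIRBP minus si-NC, and the limma adjusted p of the difference was 0.0047. For Pold1 they stood at 0.97 and 0.14 (limma adjusted p = 0.00428 for the difference), and for Rfc1 at 0.60 and 0.18 (limma adjusted p = 0.00576). Rpa3 had nearly the same value in both arms, 0.67 in CIRBP minus NC and 0.70 in si-CIRBP minus si-NC, with a difference of -0.04 (SE 0.193). For Tk1 the difference of 0.75 did not pass the test (limma adjusted p = 0.053). Without CIRBP library 3, 5 genes were called higher, against 4.77% of tested genes. In all, 8 genes were called higher in both arms: Cdc45, Gins3, Pcna, Pole2, Rfc1, Rfc3, Rpa2 and Rpa3, against 6.5% of all tested genes. Of these only Pole2 kept its call between the si groups under every alternative; that of Gins3 was lost under 15 of 21 and that of Rpa2 under 13 of 21.

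Other genes of the pathway came from lists chosen with earlier results of these data known, and are set beside the shares of all tested genes. Those shares were 19.7% higher and 34.2% lower in CIRBP against NC. Between the si groups they were 9.08% higher and 20.5% lower. Of 26 further replication factors, 13 rose and 4 fell in CIRBP against NC, a larger share higher and a smaller share lower than over all genes. Between the libraries labelled si-CIRBP and si-NC 1 rose and 5 fell, no larger a share than over all genes in either direction. Gmnn, the inhibitor of Cdt1, rose in CIRBP against NC (log2 fold change 0.86, limma adjusted p = 6.66e-05). The origin recognition subunits Orc3, Orc4 and Orc5 fell, with log2 fold changes of -0.29, -1.02 and -0.72, and Orc2 was not called (0.06). Orc4 was at 21.3, 22.1 and 22.3 FPKM in CIRBP libraries, against 45.0, 46.8 and 44.6 FPKM in NC libraries (limma adjusted p = 4.52e-06). Orc3, Orc4 and Orc5 also fell in si-CIRBP against si-NC, with log2 fold changes of -0.27, -0.42 and -0.25. Top1, the topoisomerase that relieves torsion ahead of the fork, fell in both arms (log2 fold change -0.77 in CIRBP minus NC and -0.51 in si-CIRBP minus si-NC).

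Of 16 further nucleotide supply genes, 9 rose and 5 fell in CIRBP against NC, and 2 rose and 1 fell between the si groups; the share lower in CIRBP and the share higher in si-CIRBP are near those of all tested genes. Of the enzymes of de novo nucleotide synthesis on this list, Gmps, of guanine nucleotide synthesis, fell in CIRBP against NC (log2 fold change -0.66), and so did Cad, of pyrimidine synthesis (-0.52), while Impdh2 and Ctps1 rose (0.34 each) and Umps was not called (-0.09). Samhd1, which breaks down deoxynucleotides, fell as well (-0.50).

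Of 23 genes of E2F, RB and G1/S control, 8 rose and 2 fell in CIRBP against NC, and 5 rose and 1 fell between the si groups, in both a larger share higher and a smaller share lower than over all tested genes. Ccnd1, cyclin D1, was at 971, 931 and 941 FPKM in CIRBP libraries, against 447, 450 and 443 FPKM in NC libraries (log2 fold change 1.08, limma adjusted p = 3.24e-07). In the other arm it was at 498, 505 and 480 FPKM in libraries labelled si-CIRBP, against 453, 385 and 398 FPKM in si-NC libraries (log2 fold change 0.27, limma adjusted p = 0.00887). E2f4, a mostly repressive E2F, fell in both arms, with log2 fold changes of -0.40 and -0.31. None of the 5 CDK inhibitors tested was called by limma in either arm (0 also at an unadjusted p under 0.05). Cdkn2a was at 0 FPKM in all CIRBP and NC libraries and Cdkn2b at no more than 0.00688 FPKM, so neither could be called there. Cdkn1b overlapped between CIRBP and NC. Cdkn1a (120 to 132 against 107 to 112 FPKM) and Cdkn2c (33.5 to 35.4 against 23.7 to 26.0 FPKM) did not overlap. Their SEs of 0.278 and 0.292 take in the spread of the si libraries. Cdkn2a and Cdkn2b were called higher in si-NC than in NC (log2 fold change 1.94 and 1.04). Both passed the filter on low values only through the si libraries, so these calls rest on the values that admitted the genes. In si-NC libraries Cdkn2a was at 0.434, 7.35 and 3.73 FPKM and Cdkn2b at 0.179, 2.17 and 1.34 FPKM, with library 1 far below the others. Of 9 genes of replication-coupled chromatin, 3 rose and 0 fell in CIRBP against NC (Asf1b, Cdca7 and Dnmt1; 3 and 0 at an unadjusted p under 0.05), and Asf1b and Cdca7 rose and Hells fell between the si groups. Asf1b, a histone chaperone, had log2 fold changes of 0.89 in CIRBP minus NC and 0.39 in si-CIRBP minus si-NC (limma adjusted p = 6.85e-06 and 0.0048).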

How the data were processed

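Expression of cells labelled H9C2 was measured by poly-A RNA sequencing in 12 libraries, 3 in each of 4 groups named by the library titles. Values are FPKM per gene and library as the authors computed them, per the file headers. Per the submitters' processing notes, the tools were Cufflinks 2.2.1 and Bowtie2 2.3.3.1, with GRCm38 and mm10 as builds, which are of mouse although the gene identifiers are rat. No strand setting is given in the sources used here. The columns of CIRBP and NC carry a prefix that the labels do not explain. Depth behind each value is unknown, so no counting interval was computed.

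Groups were compared with limma 3.58.1 in R 4.3.3 (eBayes with a trend) on log2(FPKM + 1), with a pseudocount of 1, for the 14257 genes that reached 1 FPKM in 3 libraries. All 12 libraries entered with a coefficient for each group and no replicate block, which left 8 residual degrees of freedom (2.53 prior). The two-sided p-values were adjusted over all tested genes (Benjamini-Hochberg), and calls had an adjusted p under 0.05. The fit was tested on simulated data in which 200 genes were changed by 1 on the log2 scale, up or down. It recovered 83% of them in CIRBP minus NC and 86.5% in si-CIRBP minus si-NC. The 44 genes had median changes of 0.32 and 0.14, so these shares do not give the recovery of changes of their size. Unchanged genes made up 4.6% and 6.99% of the calls. The simulation gave all groups the same SD per gene, so it could not show the effect of the wider spread in the si groups. Alternatives were another pseudocount (0.1), no filter, scalings to one median or by median ratios, no trend, a variance factor per group, a replicate block, the libraries of a comparison alone, and each library left out. Leaving out library 1 of both si groups together was chosen after seeing the data. The members, role groups, accompanying lists and tests were chosen with earlier results of these data known. Values in every library are given for up to 2 called members per role group and comparison with the largest change, and up to 4 called genes per accompanying list with the smallest adjusted p were named; others were chosen after their values were seen. One gene of the nucleotide supply list is not reported here. Promoter windows came from RefSeq (GRCr8).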

Additional observations from a re-analysis of the deposited data

Results flagged for a closer look

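The change between CIRBP and NC differed from that between the libraries labelled si-CIRBP and si-NC for 9 of the 44 genes, by limma's test of the difference between the arms, with 1 coefficient per group. On the log2 scale these differences were 0.83 for Pold1, 0.73 for Cdt1, 0.65 for Pole2, 0.61 for Mcm10, 0.49 for Lig1, 0.49 for Cdc45, 0.45 for Orc6, 0.42 for Rfc1 and 0.27 for Pold3. In all 9 the change in CIRBP against NC was the more positive. Of these calls, 5 (Cdt1, Cdc45, Pold1, Pole2 and Rfc1) were kept under every alternative, and those of Orc6, Mcm10, Pold3 and Lig1 were lost when CIRBP library 3, among others, was left out. The arms have separate controls that themselves differed in these genes: Cdc45, Orc6, Cdt1, Lig1, Pold1 and Pole2 were called higher in si-NC than in NC.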

How the results depend on the processing

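Counts of members called are given by limma, against 29 higher and 0 lower in CIRBP minus NC, 9 and 1 in si-CIRBP minus si-NC, 21 and 0 in si-NC minus NC, and 9 and 0 for the difference between the arms. In CIRBP minus NC every alternative gave 20 to 37 higher and 0 lower, against 16% to 28.3% of tested genes higher. In si-CIRBP minus si-NC the count was 12 higher and 0 lower when scaled by median ratios and 18 and 0 when scaled to one median. It was 2 and 0 with a variance factor per group and 5 and 1 with the replicate block. With the libraries of the comparison alone it was 1 and 0. Of all tested genes 13.7%, 16.2%, 3.77%, 8.39% and 1.87% were called higher, in that order. Leaving out each library in turn gave 20 to 30 higher in CIRBP minus NC. It gave 3 to 26 higher and 0 to 1 lower in si-CIRBP minus si-NC. For si-NC minus NC it gave 11 to 31 higher, and for the difference 5 to 13 higher and 0 to 1 lower. The shares of tested genes called higher ran from 16.4% to 23.9%, 6.78% to 12.1%, 6.85% to 17.5% and 4.2% to 12.8%, in that order. Library 1 of both si groups was also left out, a choice made after seeing the data. Then si-CIRBP minus si-NC had 31 higher and 0 lower, si-NC minus NC 27 and 2, and the difference 10 and 4. Of all tested genes 16.3%, 21% and 16.2% were called higher, in that order, and 3634, 5191 and 3596 of 14257 lower. The cause of these shifts was not tested.

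Of single genes, Rrm1 turned to a difference of -0.217 (limma adjusted p = 0.0237) without si-CIRBP library 1 and -0.216 without library 1 of both si groups, against 0.0138 (0.974); over all libraries left out singly it ran from -0.217 to 0.135. Chaf1a turned to 0.186 in si-CIRBP minus si-NC without library 1 of both (limma adjusted p = 0.047), against -0.0615 (0.758). Calls kept under every alternative were 20 of 29, 1 of 10, 10 of 21 and 5 of 9 in the order above. Whether the replicate numbers pair the samples could not be settled from these values. Same-numbered libraries of CIRBP and NC correlated at 0.097, 0.048 and 0.1 in their deviations, each CIRBP library best with its own number. Those of the other pairs correlated at -0.09 to 0.041. With the replicate block 25, 5, 19 and 8 members were called higher, against 19.1%, 8.39%, 11.5% and 5.99% of tested genes. Depth per value is unknown, and fold changes on log2(FPKM + 1) understate those of low genes such as Cdc45.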
